A study of Rattus norvegicus with 9 samples.

Results

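The postsynaptic scaffold genes examined here were Dlg4, Dlgap1, Shank1, Shank2, Shank3, Homer1, Homer2, Homer3 and the kinase gene Camk2a. These 9 genes were taken by symbol from a table of 37209 genes in frontal cortex, and all 9 were among the 16837 genes with enough reads to be tested. RNA-seq had been run on 9 male Wistar rats of 14 weeks, 3 from each group, which are labelled Control, MS and MS+EA, and the last is called EA below. Control litters were left with their mothers until weaning. MS and EA rats had spent 4 h of every day without their mothers between postnatal day (PND) 1 and PND 21. EA rats then received electroacupuncture at the points GV20 and GV29 every other day from PND 61 to PND 81. The rats of all 3 groups were anaesthetised over those days. No sham EA rats were sequenced, so the current, the needles and the handling that came with them cannot be told apart, and no rats received EA without separation. The labels name no litter, so p-values measure only the spread between these rats, and rats of a group may share a mother.

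The postsynaptic density is a protein mesh beneath the membrane of excitatory synapses, mostly on dendritic spines. PSD-95, the product of Dlg4, holds glutamate receptors at the membrane, SAPAP proteins such as that of Dlgap1 link it to the Shank proteins, and Homer proteins join Shanks to group I metabotropic glutamate receptors and to calcium stores. CaMKII, whose alpha subunit is encoded by Camk2a, is among the most abundant proteins of the density and is required for long-term potentiation in the hippocampus and cortex.

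A gene was called changed when its fold change exceeded 1.5 and its adjusted p was below 0.05, and no member met both thresholds in any of the 3 comparisons (edgeR quasi-likelihood test with Benjamini-Hochberg adjustment). Homer1 was the only member with higher means in MS and EA than in Control rats, and it was higher in every MS and EA rat than in every Control rat, without passing the adjusted threshold in the edgeR fit. Camk2a was lower in every EA rat than in every Control and MS rat, and it was 1.28-fold lower in EA than in Control rats with an adjusted p of 0.0387, which did not stay under 0.05 in 6 of 9 fits without 1 rat. Shank1, Shank2 and Shank3 had lower means in EA than in Control rats that did not pass the adjusted threshold. Levels are given as CPM, the reads of a gene normalised to the TMM-scaled total of the rat, and differences as log2 fold changes with their standard error (SE).

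The promoter windows of Homer1, Shank3 and Camk2a are shown because Shank3 and Camk2a varied together over the rats, while Homer1 was the member with higher means in MS and EA than in Control rats. Windows were available for 6 of the 9 members and came from RefSeq, build GRCr8, covering 250 bases before to 50 bases after a gene's start. Capitals mark matches on either strand to TGACG (a CREB half-site), CCAAT or TATAAA, and a match on the opposite strand is seen as the reverse complement of these letters.
Homer1 chr2:26278762-26279061 + strand: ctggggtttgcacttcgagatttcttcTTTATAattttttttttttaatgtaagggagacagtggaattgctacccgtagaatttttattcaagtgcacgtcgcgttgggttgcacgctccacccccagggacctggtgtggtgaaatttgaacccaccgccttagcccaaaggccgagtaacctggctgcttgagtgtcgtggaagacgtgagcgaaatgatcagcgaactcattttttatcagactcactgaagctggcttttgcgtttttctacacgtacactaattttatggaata
Shank3 chr7:122448073-122448372 + strand: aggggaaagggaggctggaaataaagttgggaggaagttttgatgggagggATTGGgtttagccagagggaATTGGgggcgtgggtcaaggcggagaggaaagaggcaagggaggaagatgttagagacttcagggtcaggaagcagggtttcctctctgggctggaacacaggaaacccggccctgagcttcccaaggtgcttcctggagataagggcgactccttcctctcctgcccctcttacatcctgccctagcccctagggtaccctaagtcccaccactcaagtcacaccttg
Camk2a chr18:56648930-56649229 + strand: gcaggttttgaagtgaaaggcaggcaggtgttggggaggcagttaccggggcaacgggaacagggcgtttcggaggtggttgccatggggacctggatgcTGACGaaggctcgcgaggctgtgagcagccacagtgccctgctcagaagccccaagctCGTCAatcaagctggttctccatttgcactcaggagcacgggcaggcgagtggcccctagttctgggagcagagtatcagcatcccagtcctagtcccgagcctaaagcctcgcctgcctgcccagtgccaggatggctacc
The Camk2a window held TGACG on both strands, with first bases at positions -150 and -92 from the start, and neither of the other windows held it. Among all 33469 windows of this length 21.2% held TGACG. The Shank3 window held CCAAT on the opposite strand at positions -199 and -179, a motif found in 37.5% of all windows, and the Homer1 window held TATAAA on the opposite strand at position -223, a motif of 14.2% of all windows. No marked match overlapped another. The GC content was 44.7% in the Homer1 window, 56.3% in that of Shank3 and 61.3% in that of Camk2a, beside a median of 51.7% over all windows. A match is only a description of the letters.

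The total per rat was 16153292 to 19007907 counts in Control, 16106381 to 17243320 in MS and 12479905 to 14913736 in EA rats, and A1 of the Control group was the deepest library. The share of counts on non-coding genes was 1.62% to 1.81% in Control, 1.70% to 1.85% in MS and 1.90% to 2.13% in EA rats, so every EA rat was both shallower and richer in non-coding reads than every other rat. Markers of cortical excitatory neurons were abundant in all rats, at a summed 2055 to 2642 CPM, whereas the 9 listed markers of striatal projection neurons summed to 314 to 378 CPM.

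Dlg4 had few reads, between 130 and 246 per rat, which placed it at rank 9221 by mean count. Whether the counting covered the whole gene was not tested. Its level was 13.2, 11.2 and 12.9 CPM in Control rats A1, A2 and A6. It was 11.5, 9.19 and 13.8 CPM in rats B3, B4 and B6 of the MS group, and 11.2, 11.3 and 10.3 CPM in rats C3, C10 and C16 of the EA group. The groups overlapped, and the MS rats spanned the values of all the others. The log2 fold change of Dlg4 was -0.11 (SE 0.152, adjusted p = 0.850) for MS relative to Control and -0.18 (SE 0.154, adjusted p = 0.532) for EA relative to Control. With the 95% interval of the latter running from -0.51 to 0.16, a 1.5-fold change of Dlg4 lay outside what these rats allowed, but a smaller one did not.

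Dlgap1, which encodes SAPAP1, was at 40.1, 32.6 and 34.3 CPM in Control rats, at 30.8, 28.5 and 31.2 CPM in MS rats and at 34.8, 37.1 and 31.2 CPM in EA rats, in the same order of rats. Every MS rat lay below every Control rat, and the MS rats also lay below the EA rats, with B6 and C16 nearly level. Dlgap1 was thus the only member with its lowest mean in MS rats, at 30.2 ± 1.49 CPM (SD, n = 3) beside 35.7 ± 3.94 in Control and 34.4 ± 2.97 in EA rats. The difference was -0.24 (SE 0.102, adjusted p = 0.423) for MS relative to Control and 0.19 (SE 0.103, adjusted p = 0.468) for EA relative to MS, so neither passed the test over all genes. Dlgap1 shares its locus in RefSeq GRCr8 with 5 other genes, and its reads were not separated from theirs here. The reads had been aligned to another build, Rnor_6.0, and whether the same overlaps held there was not tested.

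**Figure D1:**
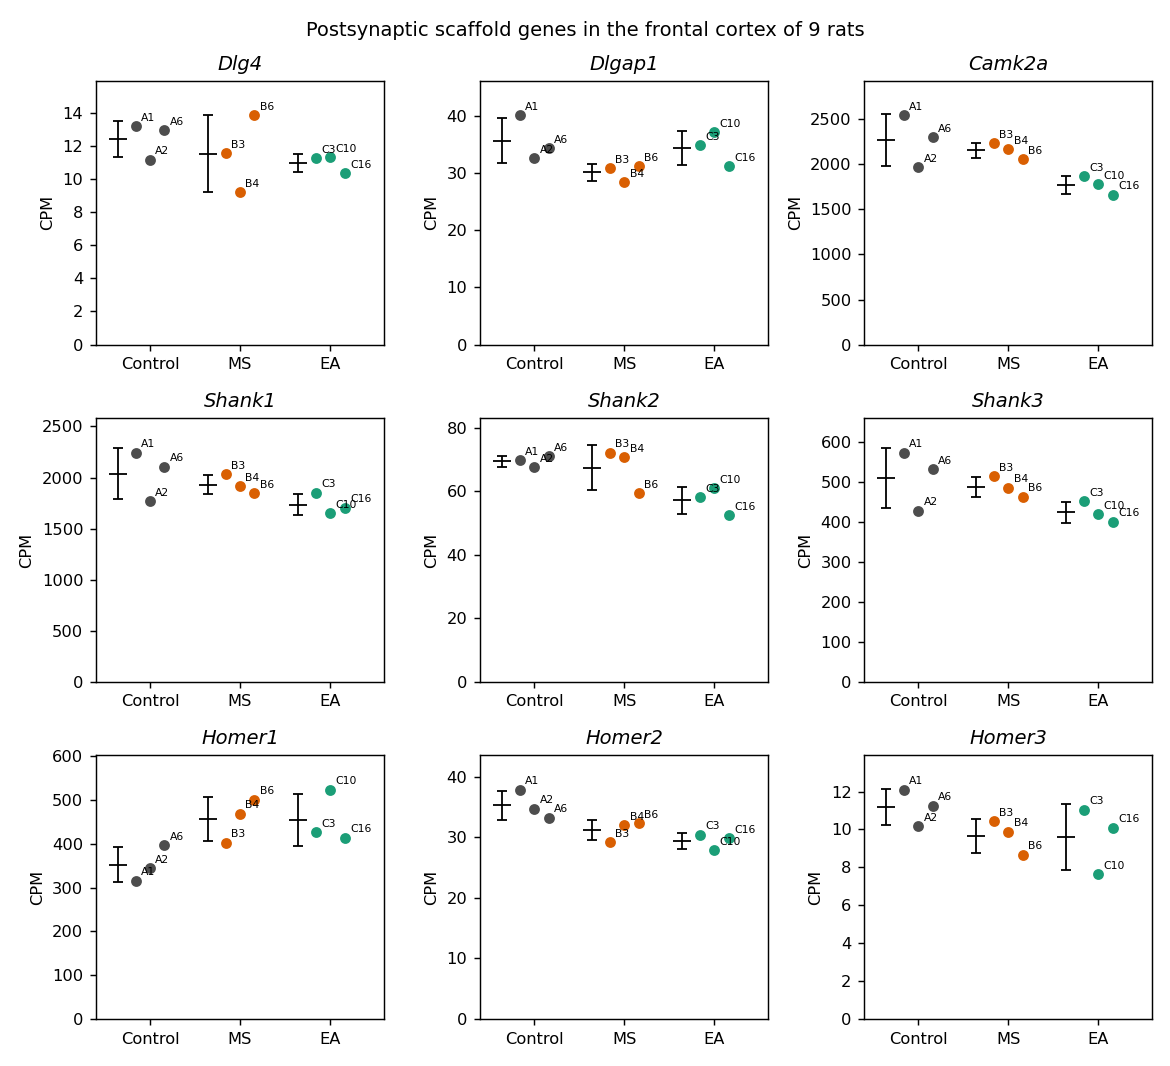
Level of each postsynaptic scaffold gene in CPM (vertical axes, each from 0) in the 3 Control, 3 MS and 3 EA rats, with 1 labelled point per rat and bars for the mean ± SD to the left of the points. Homer1 is higher in MS and EA rats (402 to 524 CPM) than in Control rats (316 to 396 CPM), and Camk2a is lowest in the EA rats (1664 to 1867 CPM).

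The Shank genes encode the large scaffolds of the deep layer of the density, which bind SAPAP and Homer proteins. Shank1 was at 2244, 1768 and 2105 CPM in Control rats, at 2030, 1917 and 1843 CPM in MS rats and at 1850, 1651 and 1703 CPM in EA rats. Control rat A2 fell among the EA rats and C3 just above MS rat B6, so the groups overlapped. The mean of Shank1 was 2039 ± 245 CPM in Control, 1930 ± 94.1 CPM in MS and 1735 ± 103 CPM in EA rats. On the log2 scale the difference was -0.08 (SE 0.0882, adjusted p = 0.797) for MS relative to Control and -0.23 (SE 0.0883, adjusted p = 0.139) for EA relative to Control.

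Shank3, the gene mutated in Phelan-McDermid syndrome, was at 573, 428 and 531 CPM in Control rats, at 514, 485 and 463 CPM in MS rats and at 452, 419 and 400.2 CPM in EA rats. Every EA rat was below every MS rat, while Control rat A2 lay within the EA range. The difference between EA and Control rats was -0.27 (SE 0.0969, adjusted p = 0.120) and that between EA and MS rats -0.20 (SE 0.0969, adjusted p = 0.420). Without Control rat A2 the former reached -0.38 with an adjusted p of 0.0317 in the edgeR fit. That was the only 1 of 16 alternatives with an adjusted p under 0.05. In the same fit it was -0.18 without A1 (adjusted p = 0.395) and -0.24 without A6 (adjusted p = 0.303).

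Shank2 was at 69.8, 67.6 and 71.0 CPM in Control rats, at 72.2, 70.8 and 59.4 CPM in MS rats and at 58.1, 60.98 and 52.5 CPM in EA rats. The Control rats lay close together and above all EA rats, and MS rat B6 sat with the EA rats. The log2 fold change of Shank2 was -0.28 (SE 0.0882, adjusted p = 0.0823) for EA relative to Control, -0.24 (SE 0.0883, adjusted p = 0.319) for EA relative to MS and -0.04 (SE 0.0873, adjusted p = 0.905) for MS relative to Control. By DESeq2 the first of these had an adjusted p of 0.0432, the only 1 of 16 alternatives under 0.05. In edgeR fits its adjusted p was 0.212 without A1 and 0.228 without C16.

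Homer1 encodes both the long, coiled-coil Homer1 proteins that bridge partners and the short Homer1a, which neuronal activity induces and which lacks the coiled coil. Counts per gene do not separate these forms. Homer1 was at 316, 345 and 396 CPM in Control rats, at 402, 469 and 501 CPM in MS rats and at 427, 524 and 414 CPM in EA rats. All 6 separated rats exceeded all 3 Control rats, though the highest Control rat, A6, was close to the lowest MS rat, B3, and MS and EA rats were interleaved. The share of all tested genes with this arrangement in both groups at once was not counted. The mean of Homer1 was 352 ± 40.6 CPM in Control, 457 ± 50.2 CPM in MS and 455 ± 60.1 CPM in EA rats. In MS rats Homer1 was higher than in Control rats by 0.38 on the log2 scale (SE 0.111, 95% interval 0.14 to 0.62, adjusted p = 0.219), and in EA rats by 0.37 (SE 0.111, 95% interval 0.13 to 0.61, adjusted p = 0.0710). By DESeq2 the EA value had an adjusted p of 0.0165, and with a filter of at least 1 count in any rat the edgeR adjusted p was 0.0087 for EA and 0.0212 for MS, so the side of the threshold depended on these choices. Both comparisons use the same Control rats. Between EA and MS rats the difference was -0.01 (SE 0.111, adjusted p = 0.987), with a 95% interval of -0.25 to 0.23.

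Homer2 was at 37.8, 34.7 and 33.2 CPM in Control rats, at 29.2, 32.0 and 32.3 CPM in MS rats and at 30.4, 27.9 and 29.8 CPM in EA rats. Homer2, a long scaffold form like the long Homer1 proteins, was lower in each separated rat than in each Control rat, the opposite arrangement to Homer1. The log2 fold change was -0.18 (SE 0.0880, adjusted p = 0.496) for MS relative to Control and -0.26 (SE 0.0889, adjusted p = 0.0997) for EA relative to Control, and neither passed. Of all tested genes 7.53% were lower without overlap in MS than in Control rats, and 12.9% in EA than in Control rats. Endothelial markers also separated MS from Control rats, as Homer1 and Homer2 did. The 5 tested markers summed to 175 to 206 CPM in Control, 219 to 301 CPM in MS and 199.96 to 250.5 CPM in EA rats. All 5 of 5 were higher in MS than in Control rats, 3 of them at an unadjusted p under 0.05 and 0 by the adjusted p (edgeR). Of all tested genes 7.06% were higher at that unadjusted threshold. The part of these markers in the Homer1 and Homer2 values was not tested.

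Homer3 had 114 to 226 reads per rat and was at 12.1, 10.2 and 11.3 CPM in Control rats, at 10.4, 9.88 and 8.66 CPM in MS rats and at 11.0, 7.64 and 10.1 CPM in EA rats. The groups overlapped for Homer3, the remaining Homer gene, with C10 the lowest rat. Relative to Control the difference was -0.21 (SE 0.156, adjusted p = 0.668) in MS and -0.22 (SE 0.158, adjusted p = 0.435) in EA rats, and the intervals of both included 0. Homer1 made up 86.4% to 89.9% of the reads of the 3 Homer genes in Control rats, 91.0% to 92.4% in MS rats and 91.1% to 93.7% in EA rats.

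Camk2a ranked 18 among all genes by mean count, with 20933 to 47485 reads per rat. Its level was 2541, 1969 and 2297 CPM in Control rats, 2231, 2170 and 2059 CPM in MS rats and 1867, 1778 and 1664 CPM in EA rats. MS rats lay inside the Control range, and all EA rats lay below both groups, the nearest rat being A2 of the Control group. The mean was 2269 ± 287 CPM in Control, 2153 ± 87.4 CPM in MS and 1770 ± 102 CPM in EA rats. The log2 fold change of Camk2a was -0.36 (SE 0.0891, 95% interval -0.55 to -0.17, adjusted p = 0.0387) for EA relative to Control, -0.28 (SE 0.0891, 95% interval -0.48 to -0.09, adjusted p = 0.260) for EA relative to MS and -0.08 (SE 0.0890, adjusted p = 0.813) for MS relative to Control. The first of these passed the adjusted p threshold but not the fold threshold, and it lost the adjusted threshold in 6 of the 9 fits that left out 1 rat. Its adjusted p was 0.162 without A1, 0.126 without A6, 0.121 without C16, 0.0772 without C10, 0.0524 without B6 and 0.0511 without B4, and it was 0.0615 when only the 6 rats compared were fitted.

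Camk2a is a gene of excitatory neurons, and in bulk tissue fewer cells of a type and less RNA per cell cannot be told apart. The summed level of the 6 excitatory neuron markers was 2448 to 2642 CPM in Control, 2379 to 2470 CPM in MS and 2055 to 2270 CPM in EA rats, lower in every EA rat than in every other rat. Slc17a7, the vesicular glutamate transporter of cortical excitatory neurons, chosen here after its values were seen, was at 1592 ± 53.3 CPM in Control and 1289 ± 57.6 CPM in EA rats (log2 fold change -0.30, adjusted p = 0.0207). The other 5 markers of that list did not pass an unadjusted p of 0.05. Of the 6, 2 were higher and 4 lower in EA than in Control rats, and their median was -0.10. Slc17a7 made up most of the summed level, so the sum largely follows that gene. The summed pan-neuronal markers overlapped, at 7975 to 8366 CPM in Control and 7764 to 8929 CPM in EA rats. Oligodendrocyte markers also overlapped, at 2166 to 3307 CPM in Control and 2087 to 4269 CPM in EA rats. The part of these markers, of depth and of the non-coding share in the Camk2a result was not tested.

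**Figure D2:**
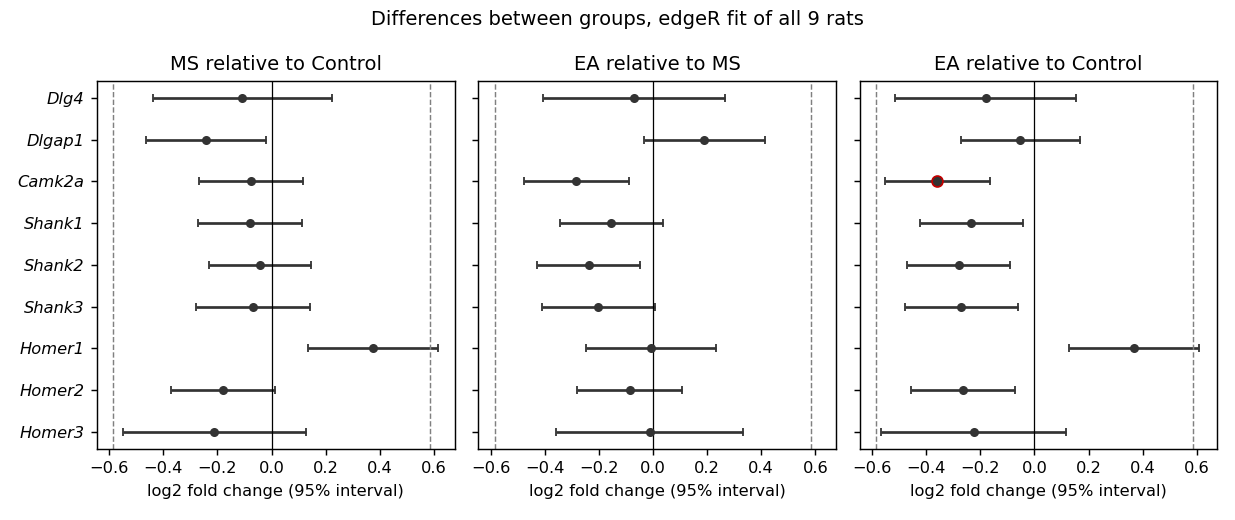
Log2 fold change of each member (horizontal axes) with its 95% interval from the edgeR fit of all 9 rats, for MS relative to Control, EA relative to MS and EA relative to Control. Dashed lines mark a fold change of 1.5 in either direction, and the red point is Camk2a, the only value with an adjusted p under 0.05 (0.0387, and above 0.05 in 6 of 9 fits without 1 rat).

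Between MS and Control rats 0 of the 9 members passed both thresholds, beside 0.0238% of all tested genes. At an unadjusted p under 0.05 there was 1 member higher, Homer1, where 7.06% of all genes were higher, and 1 lower, Dlgap1, where 3.55% were lower. Groups did not overlap for 1 higher member (10% of all genes) and for 2 lower members, Homer2 and Dlgap1 (7.53%). The median log2 fold change of the members was -0.08, beside a median of -0.0014 over all genes. The 95% interval lay wholly within a 1.5-fold change for 8 of the 9 members, Homer1 being the exception.

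Between EA and MS rats 0 members again passed, beside 0.0178% of all genes. At the unadjusted threshold 0 members were higher (6.01% of all genes) and 2 were lower (6.42%), Camk2a and Shank2. Dlgap1 was higher without overlap (8.27% of all genes), and Camk2a and Shank3 were lower without overlap (9.60%). All 9 intervals lay within a 1.5-fold change in either direction.

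Between EA and Control rats 0 members passed both thresholds, beside 1.37% of all genes, and 1, Camk2a, was lower by the adjusted p alone, beside 2.19%. At the unadjusted threshold Homer1 was higher (11.9% of all genes) and 5 members were lower (10.6%), namely Camk2a, Shank1, Shank2, Shank3 and Homer2. This number depended on single rats. Without Control rat A1 only 3 members passed it in either direction, Homer1, Camk2a and Shank2, and 4 passed without A6 or without C16. Camk2a, Shank1 and Shank3 also varied together over the rats, as described below. Non-overlapping groups were found for Homer1 on the higher side (13.0% of all genes) and for 3 lower members, Camk2a, Shank2 and Homer2 (12.9%). The member median was -0.23, beside 0.0055 over all genes. The counts of members past both thresholds were also 0 by DESeq2 in all 3 comparisons. Dlg4, Homer2, Homer3 and Dlgap1 had no DESeq2 adjusted p for EA relative to MS.

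The reads of Homer1 were also set against those of Camk2a within each rat, a ratio that no scaling of libraries can change and that was chosen after the values had been seen. There were 12.4, 17.5 and 17.3 Homer1 reads per 100 Camk2a reads in Control rats A1, A2 and A6, 18.0, 21.6 and 24.3 in the MS rats in the order B3, B4 and B6, and 22.8, 29.5 and 24.9 in the EA rats in the order C3, C10 and C16. All 6 separated rats exceeded all Control rats, and the highest MS rat exceeded the lowest EA rat. The means were 15.7 ± 2.85, 21.3 ± 3.15 and 25.7 ± 3.39 in Control, MS and EA rats. By contrast, Shank3 reads per 100 Shank1 reads stayed between 23.5 and 25.5 in all 9 rats. Shank1 reads per 100 Camk2a reads were 88.3 to 91.6 in Control, 88.4 to 91.0 in MS and 92.9 to 102 in EA rats, so each EA rat had fewer Camk2a reads for its Shank1 reads than any other rat.

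**Figure D3:**
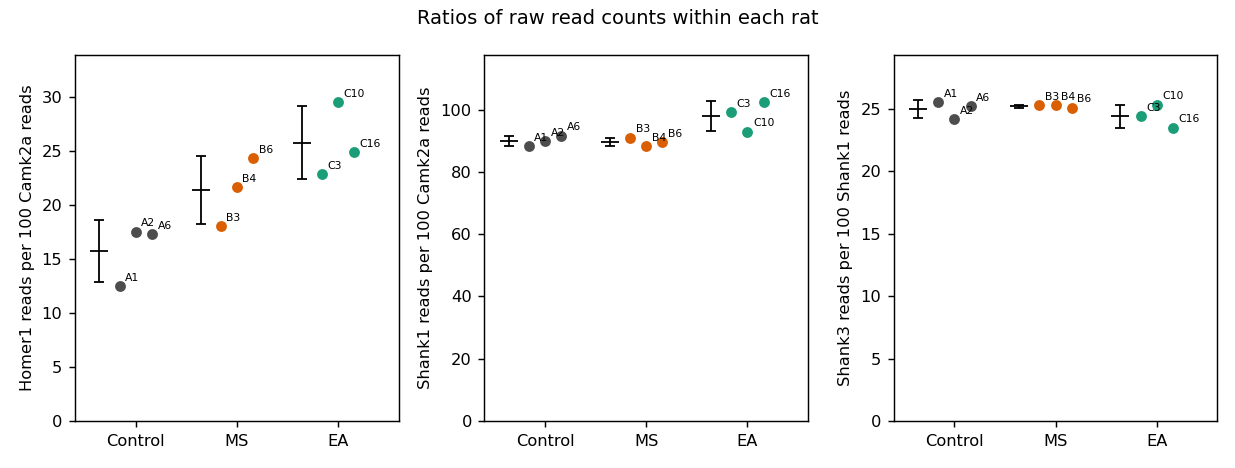
Reads of 1 gene per 100 reads of another (vertical axes, from 0) in the Control, MS and EA groups of 3 rats, with points for rats and bars for the mean ± SD. Homer1 per 100 Camk2a reads runs from 12.4 to 17.5 in Control rats and from 22.8 to 29.5 in EA rats, while Shank3 per 100 Shank1 reads stays between 23.5 and 25.5.

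Over the 9 rats the 36 pairs of members were correlated on log2 CPM, with exact permutation p-values adjusted over the 36 pairs. The permutation ignored the groups, so 2 genes that differ alike between groups can also get a small p. Shank1 and Shank3 had the highest correlation (r = 0.981, exact permutation p = 2.2e-05, adjusted 7.9e-04, and rho = 0.967, exact permutation p = 1.7e-04, adjusted 0.0030). It was 0.952 without the 2 rats farthest from the median of Shank1 and 0.969 within groups, after each group's mean had been removed. For each pair the 2 rats left out were those farthest from the median of the gene named first. Shank3 and Camk2a had r = 0.967 (exact permutation, adjusted p = 0.0012) and rho = 0.983 (adjusted p = 0.0018), with r = 0.926 without 2 rats and 0.984 within groups. Shank1 and Camk2a had r = 0.941 (exact permutation, adjusted p = 0.0030) and rho = 0.933 (adjusted p = 0.0090), with r = 0.876 without 2 rats and 0.929 within groups. These 3 genes therefore kept their relation inside the groups, where A1 was highest and A2 lowest of the Control rats for each.

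Shank2 and Camk2a had r = 0.835 (exact permutation, adjusted p = 0.0476) and rho = 0.800 (adjusted p = 0.0996), but r was 0.498 within groups and 0.673 without 2 rats. Homer1 and Homer3 ran in opposite directions, with r = -0.822 (exact permutation, adjusted p = 0.0476) and rho = -0.833 (adjusted p = 0.0744), r = -0.598 without 2 rats and r = -0.750 within groups. All 8 pairs with Homer1 had r under 0 over the 9 rats, but only that with Homer3 passed the adjusted threshold, and by Pearson's r alone. Within groups 2 of the 8 were above 0, at 0.21 with Dlg4 and 0.04 with Dlgap1. Homer1 and Camk2a had r = -0.488 (exact permutation, adjusted p = 0.367) and rho = -0.550 (adjusted p = 0.307). Their r was 0.077 without the 2 rats farthest from the median of Homer1, and -0.219 within groups. Leaving out the rats farthest from the median of Camk2a was not tried. Values of 1 rat share its library and scaling.

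**Figure D4:**
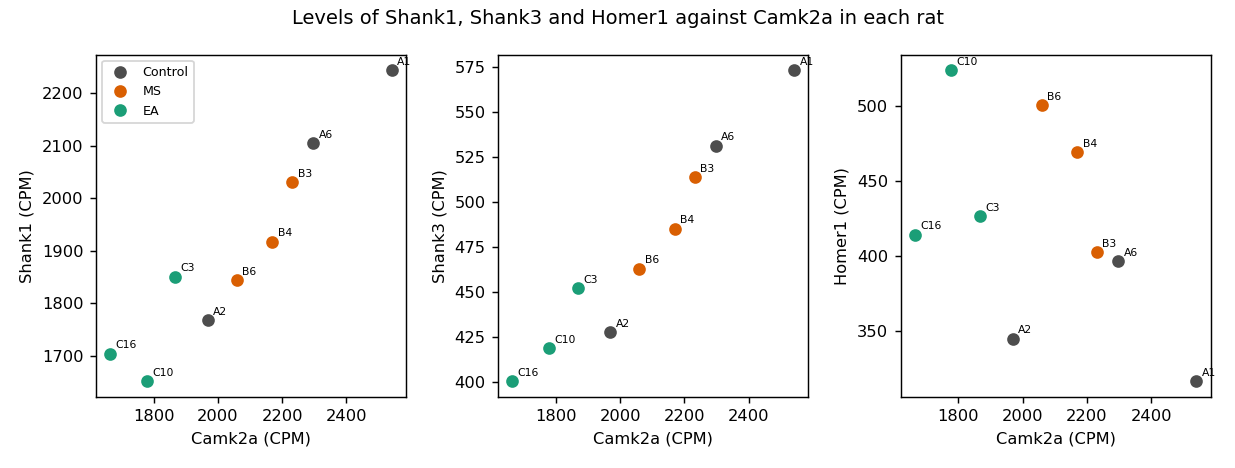
Level of Shank1, Shank3 and Homer1 (vertical axes, CPM) against that of Camk2a (horizontal axes, CPM), with 1 labelled point per rat, coloured by group, and axes that do not start at 0. Shank1 and Shank3 rise with Camk2a from the EA rats to Control rat A1 (r = 0.941 and 0.967). Homer1 has r = -0.488 with Camk2a over all rats and 0.077 without the 2 rats farthest from the median of Homer1.

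Other genes of the density were read from the same fit as lists, described by their counts. Between EA and Control rats, 541 of all tested genes were higher and 369 (2.19%) lower by the adjusted p alone. At the unadjusted threshold 11.9% of all tested genes were higher and 10.6% lower in that comparison. The shares were 6.01% and 6.42% for EA relative to MS, and 7.06% and 3.55% for MS relative to Control. Of 10 other scaffolds of the MAGUK and SAPAP families, 2 were lower in EA than in Control rats at an adjusted p under 0.05 and the median was -0.10. Dlgap4 was at 116 ± 7.84 CPM in Control and 90.3 ± 2.12 CPM in EA rats (log2 fold change -0.36, SE 0.0694, adjusted p = 0.0155). Dlgap2, another SAPAP gene, was at 163 ± 8.61 and 133 ± 11.0 CPM (-0.29, SE 0.0720, adjusted p = 0.0387). Between EA and MS rats the same pair differed by -0.23 and -0.26, with adjusted p-values of 0.253 and 0.236, and between MS and Control rats only Dlg5 was past the unadjusted threshold, at -0.17 (adjusted p = 0.455).

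Among 18 other density proteins 3 were lower in EA than in Control rats by the adjusted p, 0 were higher, and the median was -0.07. Among them were Iqsec2, an exchange factor for Arf GTPases (-0.31, SE 0.0766, adjusted p = 0.0374), and Agap2 (-0.33, SE 0.0893, adjusted p = 0.0489). Relative to MS, 5 of the 18 were lower and 1, Grip1, was higher at the unadjusted threshold in EA rats, with adjusted p-values of 0.306 or more. In MS relative to Control rats, 0 of the 18 were past it by edgeR.

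Of 14 regulators of spine actin, 7 were lower in EA than in Control rats at the unadjusted threshold, 1 of them by the adjusted p, and the median was -0.22. That gene was Ppp1r9b, which encodes spinophilin, at 1577 ± 184 CPM in Control and 1246 ± 82.3 CPM in EA rats (-0.34, SE 0.0873, adjusted p = 0.0423). Dbn1, the drebrin gene, had -0.25 in the same comparison (SE 0.0676, adjusted p = 0.0521). Dbn1 was also lower in MS than in Control rats, by -0.20 with an adjusted p of 0.291.

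The list of CaMKII subunits, CaMKII inhibitors and calmodulin buffers held 10 genes, of which 3 were lower in EA than in Control rats at the unadjusted threshold and 0 by the adjusted p. Camk2n2, a CaMKII inhibitor, had -0.75 (SE 0.212, adjusted p = 0.0590) at only 5.03 ± 0.185 CPM in Control rats. Camk2b, the beta subunit gene, had -0.16 (SE 0.0696, adjusted p = 0.203), and Camk2a reads per 100 Camk2b reads were 256 to 293 in Control, 246 to 295 in MS and 221 to 250.4 in EA rats. In MS rats Calm2, a calmodulin gene, was at 409 ± 10.04 CPM, beside 343 ± 1.30 CPM in Control and 338 ± 29.8 CPM in EA rats, but neither difference passed (adjusted p = 0.186 and 0.207).

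Partners bound by Homer proteins formed a list of 7 genes that includes group I metabotropic receptors. Their median was 0.03 for MS relative to Control, with 7 of 7 above 0 and 0 past the unadjusted threshold, and 0.05 for EA relative to Control, where Dnm3, a dynamin that binds Homer, was at 0.23 (SE 0.0986, adjusted p = 0.183). No value of a single ligand passed the adjusted threshold.

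Of the 8 activity-induced genes, which are switched on by synaptic activity as the short form of Homer1 is, 7 of 8 had negative log2 fold changes in each comparison, with a median of -0.34 for MS relative to Control, -0.25 for EA relative to MS and -0.61 for EA relative to Control. Their summed level overlapped between groups, at 396 to 678 CPM in Control, 443 to 535 CPM in MS and 290 to 538 CPM in EA rats, and Control rat A1 had less than every MS rat. Junb, a transcription factor of the AP-1 family, fell from 64.3 ± 14.2 CPM in Control to 34.5 ± 4.76 CPM in EA rats (-0.90, SE 0.159, adjusted p = 0.0116) and passed both thresholds. Fos had -1.23 (SE 0.337, adjusted p = 0.0538) and Nr4a1 -0.64 (SE 0.213, adjusted p = 0.0979). Homer1, whose short and long forms these counts do not separate, had 0.37 in that comparison. The relation of Homer1 to the activity-induced genes was not tested.

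**Figure D5:**
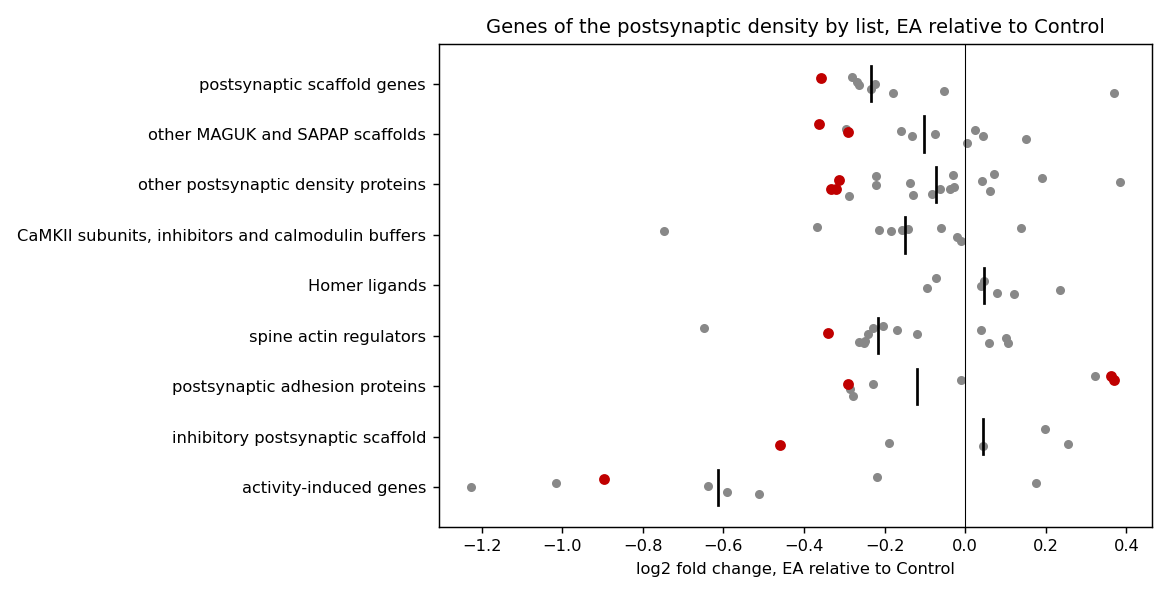
Log2 fold change for EA relative to Control (horizontal axis) of the members and of 8 lists of related genes, with 1 point per gene, red for an adjusted p under 0.05 and a black line at each list's median. The median is -0.23 for the postsynaptic scaffold genes, 0.05 for the Homer ligands and -0.61 for the activity-induced genes.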

How the data were processed

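The authors used FastQC to filter reads and HISAT2 2.0.4 to align them to Rnor_6.0, and deposited whole-number counts of reads per gene, without normalization. The counting program, strand setting and treatment of reads with several locations are not given in the sources used here. Groups came from the sample labels. Libraries were made from rRNA-depleted total RNA.

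Counts were scaled by TMM, filtered by filterByExpr with a minimum count of 10, and fitted with the edgeR 4.0.16 quasi-likelihood model in R 4.3.3 with a mean per group over all 9 rats. Contrasts were adjusted by Benjamini-Hochberg over 16837 genes. SE was taken from the ratio of the log2 fold change to the root of its F value. EBSeq, used by the authors, was not run. CPM use the TMM totals, and log2 CPM a prior count of 2. An exact permutation of 3 against 3 rats cannot give a two-sided p below 0.1, so none is given for single genes. Permutation tests of correlations were two-sided and ran in Python 3.11.15 with scipy 1.17.1. Matplotlib 3.10.9 made the plots.

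The members and lists were chosen with earlier results of these data known. The text names every member, up to 4 genes per list and comparison with the smallest p under 0.05, those past both thresholds, and the gene most like each member. Slc17a7 was added after its values were seen. Alternatives were DESeq2 1.42.0, its size factors or total counts, filters of at least 1 count in any rat or at least 10 in every rat, the 6 rats compared, no fold threshold, and the omission of each rat. Bias-adjusted deviances were added later. The edgeR fit was tested on simulated data. Lrrtm1 and Slco1a4 of the lists were not analysed here, and some list genes that the rule would name are not reported here.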

Additional observations from a re-analysis of the deposited data

How the results depend on the processing

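Of 144 values of the members per comparison under 16 alternatives, direction and side of the adjusted threshold held for 139 in MS against Control, 132 in EA against MS and 131 in EA against Control. By DESeq2, Dlg4, Homer2, Homer3 and Dlgap1 had no adjusted p in EA against MS and were counted as not passing. No member passed both thresholds under any alternative that kept the fold threshold, and without it 1 member, Camk2a, passed in EA against Control. The adjusted p of Camk2a in that comparison stayed under 0.05 in 9 of 16 alternatives, being 0.0020 by DESeq2, and rose to 0.162 without A1, 0.126 without A6, 0.0511 without B4, 0.0524 without B6, 0.0772 without C10, 0.121 without C16 and 0.0615 in the 6 rats compared, with a log2 fold change of -0.45 to -0.27 when 1 rat was omitted. Homer1 passed the adjusted threshold in EA against Control by DESeq2 (0.0165) and with the filter of at least 1 count (0.0087), and with the latter also in MS against Control (0.0212). The adjusted p of Shank2 by DESeq2 and of Shank3 without A2 in EA against Control stand above.

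Values near 0 changed sign. Omitting 1 rat gave ranges in MS against Control of -0.19 to 0.022 for Shank3, -0.17 to 0.013 for Camk2a, -0.26 to 0.028 for Dlg4 and -0.095 to 0.041 for Shank2, in EA against MS of -0.12 to 0.061 for Homer1, -0.12 to 0.13 for Homer3 and -0.20 to 0.080 for Dlg4, and in EA against Control of -0.11 to 0.040 for Dlgap1. Homer1 in EA against MS was also 0.034 with total counts, 0.0028 with at least 10 counts in every rat and 0.0025 in the 6 rats compared, and Homer3 0.032 with total counts. The number of genes past both thresholds moved more. From 4 in MS against Control it went to 207 with at least 1 count, 70 by DESeq2, 11 in the 6 rats and 2 to 22 without 1 rat. From 3 in EA against MS it went to 72 with at least 1 count, 0 with at least 10 in every rat in the edgeR fit (1951 at an unadjusted p under 0.05, and 6 by DESeq2 with the usual filter), 1 in the 6 rats, 1 with bias-adjusted deviances and 1 to 4 without 1 rat. From 230 in EA against Control it went to 469 with at least 1 count, 910 without the fold threshold and 71 (without A1) to 304 without 1 rat. The cause was not tested. No paired analysis was possible because the groups compared share fewer than 2 replicate numbers and nothing in the labels pairs the rats. The precision is limited by 3 rats per group, with a biological coefficient of variation of 12.7%, and for Dlg4 and Homer3 also by reads.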

Other observations

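Among 8 postsynaptic adhesion genes, which bind presynaptic neurexins and related partners, 2 were higher and 1 was lower in EA than in Control rats at an adjusted p under 0.05 in the edgeR fit. Of the 16837 tested genes, 541 were higher and 369 (2.19%) lower at that threshold. Lrrtm2 was at 63.7 ± 5.90 CPM in Control and 81.8 ± 2.70 CPM in EA rats (0.36, SE 0.0826, adjusted p = 0.0290), and Lrrtm4 was at 50.8 ± 3.99 and 65.6 ± 6.81 CPM (0.37, SE 0.0925, adjusted p = 0.0398). Nlgn2, the neuroligin of inhibitory synapses, was at 278 ± 19.2 and 227 ± 5.90 CPM (-0.29, SE 0.0645, adjusted p = 0.0266). Relative to MS rats, Lrrtm2 had 0.38 in EA rats, with an adjusted p of 0.184. Among 5 genes of the inhibitory postsynaptic scaffold, Lhfpl4, whose product belongs to GABA-A receptor complexes, was at 26.2 ± 2.91 CPM in Control and 19.1 ± 0.636 CPM in EA rats (-0.46, SE 0.106, adjusted p = 0.0304).

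Of the 16836 other tested genes, the gene with the most similar log2 CPM over the 9 rats was Sept5 for Camk2a (r = 0.992, rho = 0.983), Btbd2 for Shank1 (r = 0.986, rho = 0.950), Cdk5r2 for Shank3 (r = 0.985, rho = 0.983) and Mpp6 for Homer1 (r = 0.972, rho = 0.983). The highest r was 0.955 for Shank2 with Tmem178b, 0.959 for Homer2 with Fbxo21, 0.966 for Homer3 with Cyp2j3, 0.959 for Dlg4 with Hscb and 0.923 for Dlgap1 with the lncRNA LOC102548530. These genes were picked as the highest of many, so no p is given. In RefSeq GRCr8, 6 of the 9 members overlap another gene, among them Shank1 with C1h19orf81, Shank3 with Acr and Homer3 with Ddx49, while Dlg4, Homer1 and Camk2a overlap none. As the strand setting of the counting is not given, reads of such partners cannot be told apart. The counts come from another build, Rnor_6.0, in which these overlaps were not examined.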
